A study of Mus musculus with 12 samples.

Results

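The genes described here encode the subunits of the proteasome: 36 of the 18193 genes measured, chosen as every gene whose symbol is Psma, Psmb, Psmc or Psmd followed by a number, apart from Psmb8, Psmb9 and Psmb10. The rule that picks them reads gene names only. They were read in CD8 T cells on 12 Affymetrix mouse arrays, 1 per sample. The naive group (n = 5 arrays) came from the spleens of mice without tumour. The other groups were tumour-infiltrating lymphocytes (TIL) from B16F10-GP, a skin melanoma line injected into the flank, sorted by flow cytometry between day 17 and day 19 as PD-1+ Tim-3- cells that also lacked 2B4 (n = 3), called stem-like by the labels, and as PD-1+ Tim-3+ cells that also carried 2B4 (n = 4), called exhausted. All mice were 6 to 8 weeks old and of the strain that the labels spell C57bl/c. The labels do not say how many mice, or whether pooled mice, gave each array, so p-values measure the spread between these samples, which may be technical. Naive cells differ from TIL in organ and digestion as well as in state, and these cannot be told apart.

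The proteasome is the barrel-shaped protease that degrades proteins tagged with ubiquitin. Its core consists of stacked rings: outer alpha rings (Psma genes) that gate the entry, and inner beta rings (Psmb genes) that hold the proteolytic sites. A cap on the end of the core recognises ubiquitin, unfolds the substrate with a ring of ATPases (Psmc genes) and cuts off the ubiquitin chain in its lid (most Psmd genes). In lymphocytes, and under interferon, the catalytic beta subunits can be replaced by the immunoproteasome subunits Psmb8, Psmb9 and Psmb10. The peptides that the proteasome releases are the main source of those shown on MHC class I.

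Values are log2 intensities of 1 probe set per gene, so a log2 change of 1 is a doubling. Changes are given ± SE from 1 limma fit over the 12 arrays, and called where the Benjamini-Hochberg adjusted p over all genes is below 0.05. Of the 36 members, 34 lay above log2 5.71, the level below which 40% of genes lie and under which a value may be background. The genes of the sort markers were read first. Mean levels in naive, Tim-3- and Tim-3+ cells were 5.14, 11.37 and 11.77 for Pdcd1 (PD-1), and 4.63, 7.08 and 11.66 for Havcr2 (Tim-3). For Cd244a (2B4) they were 4.19, 4.89 and 11.49. All 7 CD8 T cell markers measured lay above the dim level in each group. Of these, Cd8b1 was lower than in naive cells by 0.76 in Tim-3- and 0.70 in Tim-3+ TIL, and Cd5 by 0.37 and 0.45, all called. Within groups, arrays fell into 2 sets that no label names. Set A holds naive 1 and 2, Tim-3- 1 and Tim-3+ 1 and 2, and set B the other 7 arrays. A fit blocked on array set is given where it adds or ends calls. The sets were drawn from these same arrays, by their main deviation from the group means. Blocking on them therefore favours further calls, and those calls are a description only.

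Proteasome genes were higher in TIL than in naive cells, most widely in Tim-3+ TIL. In Tim-3+ TIL against naive cells, 28 of 36 members rose and 0 fell (limma; 0 members were lower at an unadjusted p under 0.05), where 41.5% of all genes were called, 20.1% higher and 21.4% lower. The members' median log2 change was 0.46, a fold of 1.38, beside -0.065 over all genes. In Tim-3- TIL against naive cells, 11 rose and 1 fell, where 34.4% of all genes were called, 16.1% higher and 18.3% lower, and the median was 0.19 beside -0.063. Between the TIL groups, 6 of 36 were higher in Tim-3+ cells and 0 lower (0 also at an unadjusted p under 0.05), where 13.5% of all genes were called, 7.77% higher and 5.77% lower, and the median was 0.27 beside 0.011. By the probe set used for each gene, the changes were below a doubling, and no member reached 2-fold in any comparison. The largest, of Psmd9 and Psma1 in Tim-3+ TIL against naive cells, were 0.96. Another Psmd9 probe set above the dim level gave 1.87 in Tim-3- and 1.49 in Tim-3+ TIL against naive cells. These comparisons share groups, so they are not independent of each other.

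**Figure D1:**
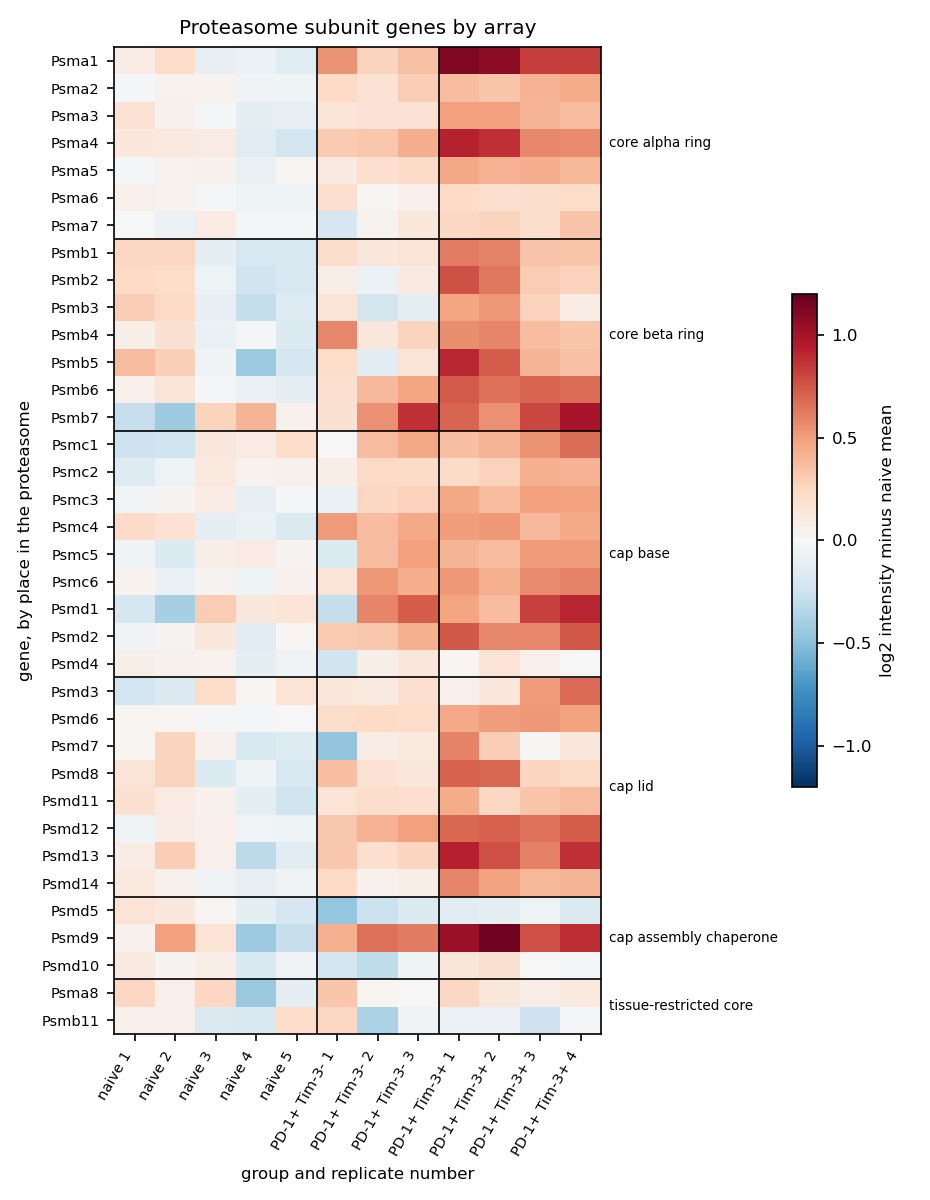
Log2 intensity of each of the 36 members (vertical axis, grouped by place in the proteasome) on each of the 12 arrays (horizontal axis), shown as the difference from the gene's naive mean (colour scale, log2). The 4 Tim-3+ columns are red for most core and cap genes, while Psmd4, Psmd5, Psmd10, Psma8 and Psmb11 stay near the naive mean.

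Counted without any model, the lowest array of Tim-3+ TIL lay above the highest naive array for 26 of 36 members, where this held for 18.4% of all genes. The same was true of 10 members in Tim-3- TIL against naive cells (16.1% of all genes) and of 19 members in Tim-3+ against Tim-3- TIL (13.1% of all genes). No member had the reverse arrangement in any comparison. Mean changes above 0 were seen in 34, 29 and 35 members in Tim-3+ TIL against naive, Tim-3- TIL against naive and Tim-3+ against Tim-3- TIL, beside 41.7%, 41.6% and 51.9% of all genes.

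**Figure D2:**
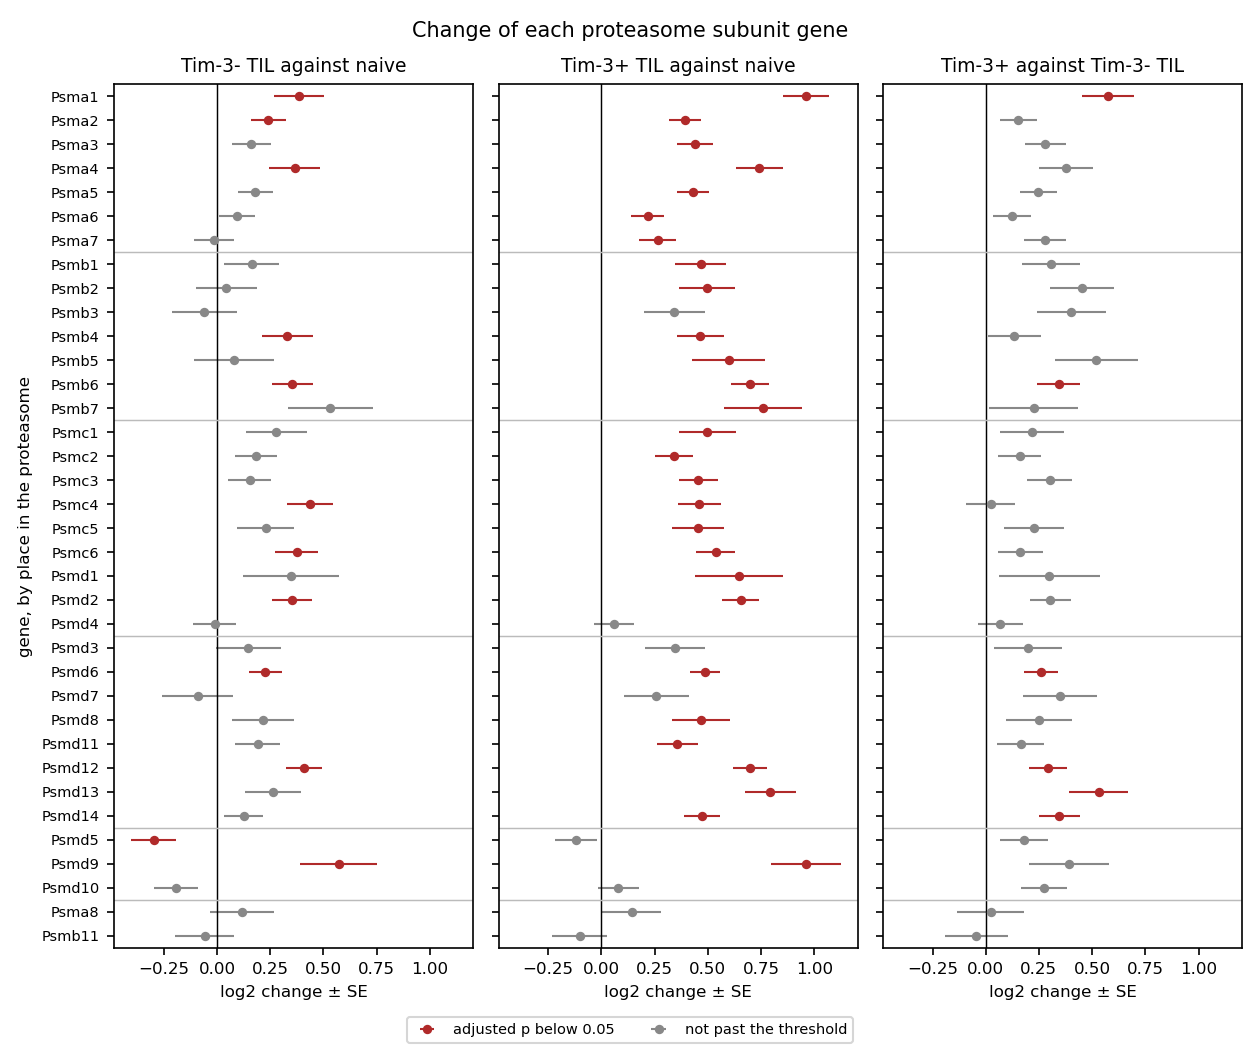
Log2 change ± SE (horizontal axes) of each member (vertical axis) in the 3 comparisons; red points have an adjusted p below 0.05 and grey points do not. In Tim-3+ TIL against naive cells 28 points are red and to the right of 0, against 11 to the right and 1 to the left in Tim-3- TIL against naive cells, and 6 to the right between the TIL groups.

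The alpha ring, whose subunits form the gate of the core, rose as a whole in Tim-3+ TIL. All 7 of its widely expressed members were higher than in naive cells (changes 0.22 to 0.96, median 0.43), 3 of 7 rose in Tim-3- TIL (median 0.18) and 1 of 7 rose between the TIL groups (median 0.28). Of all genes 20.1%, 16.1% and 7.77% were called higher in these comparisons. The counts of 3 and 1 are too small to set apart from that. Psma1, the alpha6 subunit, stood at 9.90, 10.03, 9.71, 9.74 and 9.66 in naive cells, at 10.35, 10.07 and 10.16 in Tim-3- TIL, and at 10.92, 10.88, 10.64 and 10.64 in Tim-3+ TIL. The groups form 3 steps that do not overlap. Its change was 0.39 ± 0.12 from naive to Tim-3- cells (adjusted p = 0.0199 by limma), 0.96 ± 0.11 from naive to Tim-3+ cells (adjusted p = 5.17e-06) and 0.58 ± 0.12 between the TIL groups (adjusted p = 0.00601), the last a fold of 1.49. Without Tim-3- array 1, the first of these had an adjusted p of 0.0902. The last held without any 1 array, at an adjusted p of at most 0.0381.

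Psma4, the alpha3 subunit whose tail helps to close the gate, was measured at 10.37, 10.36, 10.34, 10.10 and 10.02 in naive cells, 10.55, 10.56 and 10.68 in Tim-3- TIL, and 11.16, 11.12, 10.82 and 10.81 in Tim-3+ TIL. All Tim-3+ arrays lie above all Tim-3- arrays, and these above all naive arrays. It was higher than in naive cells by 0.36 ± 0.12 in Tim-3- TIL (adjusted p = 0.0305) and by 0.74 ± 0.11 in Tim-3+ TIL (adjusted p = 7.89e-05). The step between the TIL groups, 0.38 ± 0.13, missed the threshold (adjusted p = 0.0668) and passed it when blocked on array set (0.35, adjusted p = 0.0360).

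Psma2, the alpha2 subunit, rose in both TIL groups, by 0.24 ± 0.083 (adjusted p = 0.0360) and 0.39 ± 0.076 (adjusted p = 0.000722). Its 5 naive arrays lay between 11.52 and 11.61, the Tim-3- arrays between 11.74 and 11.87 and the Tim-3+ arrays between 11.90 and 12.02. The Tim-3- calls of Psma2 and Psma4 were lost in 6 and 5 of 8 fits without 1 array, at adjusted p up to 0.141 and 0.117. Each was lost without any of the 3 Tim-3- arrays and without naive arrays 4 or 5, and Psma2 also without naive array 1.

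Psma3 and Psma5 were higher in Tim-3+ TIL than in naive cells by 0.44 and 0.43 (adjusted p = 0.000668 and 0.000336), with no overlap. Psma3, Psma5 and Psma7 did not pass between the TIL groups (adjusted p = 0.0742, 0.0780 and 0.0893) but did when blocked on array set (0.26, 0.25 and 0.29; adjusted p = 0.0404, 0.0433 and 0.0347). The smallest calls were those of Psma6, at 0.22 ± 0.077 (adjusted p = 0.0356), and Psma7, at 0.26 ± 0.088 (adjusted p = 0.0260). Psma6 was at 12.02 to 12.13 in naive cells and 12.26 to 12.31 in Tim-3+ TIL, and Psma7 at 11.68 to 11.85 and 11.96 to 12.09, so neither overlapped. With the replicate number as a block their adjusted p was 0.0887 and 0.0590. Both calls were also lost when the arrays were centred or quantile normalized again, and within either array set. Leaving out 1 array lost Psma6 in 7 of 9 fits (each Tim-3+ array and naive 3, 4 and 5; adjusted p up to 0.0769) and Psma7 in 3 of 9 (naive 2, Tim-3+ 2 and 4; up to 0.0764).

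The beta ring holds the active sites. In Tim-3+ TIL 6 of its 7 members were higher than in naive cells (median 0.50), in Tim-3- TIL 2 of 7 (median 0.16), and between the TIL groups 1 of 7 (median 0.34). Of all genes 20.1%, 16.1% and 7.77% were called higher in these comparisons, and with 7 genes the last 2 counts are too small to set apart from that. Psmb6, which carries the caspase-like activity, was at 10.15, 10.24, 10.07, 10.01 and 9.97 in naive cells, 10.28, 10.48 and 10.56 in Tim-3- TIL, and 10.83, 10.75, 10.79 and 10.76 in Tim-3+ TIL. These are 3 separate steps, with the Tim-3+ arrays within 0.037 (SD) of each other. It was the only catalytic subunit past the threshold in all 3 comparisons: 0.35 ± 0.097 (adjusted p = 0.0113), 0.70 ± 0.089 (adjusted p = 1.91e-05) and 0.34 ± 0.10 (adjusted p = 0.0383). The first was lost without Tim-3- array 3 (adjusted p = 0.0687), and the step between the TIL groups in 6 of 7 fits without 1 array, all but that without Tim-3- array 3 (adjusted p up to 0.136).

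Psmb5 carries the chymotrypsin-like activity and is the main target of the drug bortezomib. Its levels were 10.24, 10.15, 9.82, 9.43 and 9.66 in naive cells, 10.08, 9.73 and 10.02 in Tim-3- TIL, and 10.77, 10.59, 10.27 and 10.21 in Tim-3+ TIL. The lowest Tim-3+ array lies just below the highest naive array, so these groups overlap, while Tim-3+ and Tim-3- arrays do not. Psmb5 was higher in Tim-3+ TIL than in naive cells by 0.60 ± 0.17 (adjusted p = 0.0113). The change in Tim-3- TIL was 0.08 ± 0.19 (adjusted p = 0.788), and that between the TIL groups 0.52 ± 0.19 (adjusted p = 0.105), or 0.45 when blocked on array set (adjusted p = 0.0195). Within each group its set A arrays stood above its set B arrays, by 0.20 to 0.56.

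Psmb7 carries the trypsin-like activity. It stood at 9.93, 9.78, 10.48, 10.62 and 10.26 in naive cells, 10.39, 10.76 and 11.09 in Tim-3- TIL, and 10.91, 10.76, 11.01 and 11.20 in Tim-3+ TIL. The TIL groups overlap, and the lowest Tim-3- array lies within the naive range. It rose by 0.76 ± 0.18 in Tim-3+ TIL against naive cells (adjusted p = 0.00384), while the change in Tim-3- TIL was 0.53 ± 0.20 (adjusted p = 0.0532), or 0.50 when blocked on array set (adjusted p = 0.00418). In each group its set A arrays lay below its set B arrays, by 0.27 to 0.60, the opposite way from Psmb5.

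**Figure D3:**
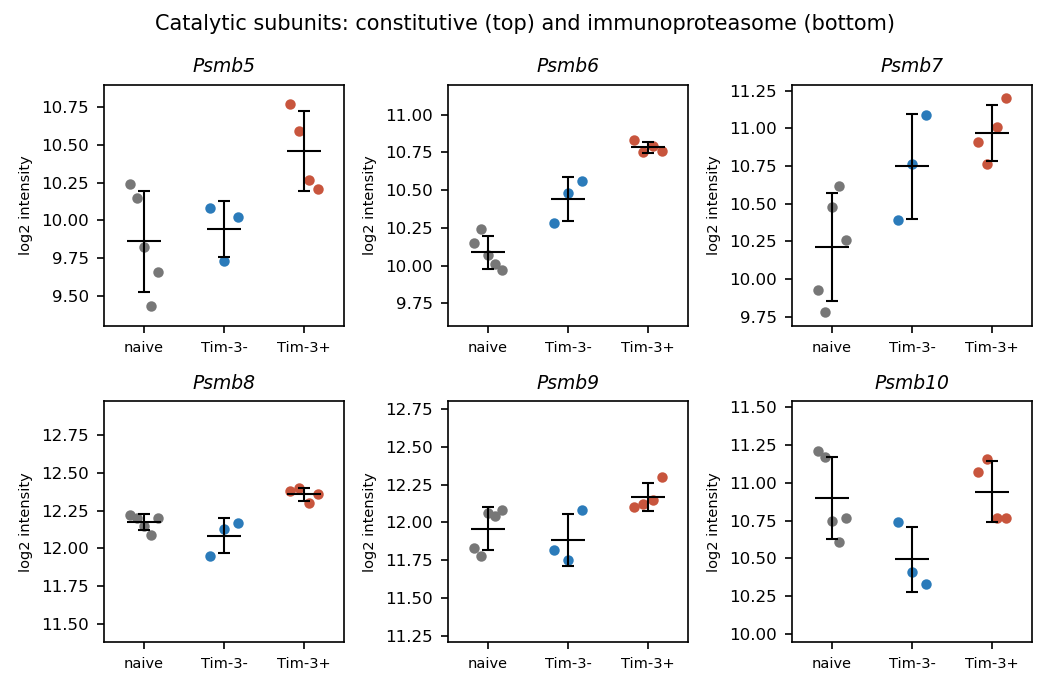
Log2 intensity (vertical axes) by group (horizontal axes; naive n = 5, Tim-3- n = 3, Tim-3+ n = 4) of the constitutive catalytic subunits (top) and of the immunoproteasome subunits (bottom); points are arrays, bars the mean ± SD. Psmb5, Psmb6 and Psmb7 rise from naive to Tim-3+ cells by 0.60, 0.70 and 0.76, while Psmb8, Psmb9 and Psmb10 differ by 0.19, 0.21 and 0.04 and do not pass the test, though Psmb8 and Psmb9 do when blocked on array set.

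Of the structural beta subunits, Psmb1, Psmb2 and Psmb4 rose in Tim-3+ TIL against naive cells. Psmb4 was at 11.22, 11.33, 11.07, 11.13 and 10.99 in naive cells, 11.73, 11.29 and 11.42 in Tim-3- TIL, and 11.71, 11.74, 11.52 and 11.48 in Tim-3+ TIL. Tim-3- array 2 lies within the naive range, and the TIL groups overlap. It rose by 0.33 ± 0.12 in Tim-3- TIL (adjusted p = 0.0485) and by 0.47 ± 0.11 in Tim-3+ TIL (adjusted p = 0.00355). The first call was lost in 6 of 8 fits without 1 array (Tim-3- 1 or 3, or naive 1, 3, 4 or 5; adjusted p up to 0.225).

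Psmb2 was at 11.76, 11.74, 11.46, 11.28 and 11.34 in naive cells, 11.60, 11.45 and 11.63 in Tim-3- TIL, and 12.28, 12.15, 11.82 and 11.80 in Tim-3+ TIL. The Tim-3- arrays lie inside the naive range and all Tim-3+ arrays above it. It was higher in Tim-3+ TIL than in naive cells by 0.50 ± 0.13 (adjusted p = 0.00782) and differed from Tim-3- TIL by 0.45 ± 0.15 (adjusted p = 0.0685), or 0.40 when blocked on array set (adjusted p = 0.0129). Psmb1 rose by 0.47 ± 0.12 in Tim-3+ TIL against naive cells (adjusted p = 0.00574). Psmb3 was the exception in the ring, at 11.27 to 11.86 in naive and 11.65 to 12.08 in Tim-3+ cells, with a change of 0.34 ± 0.14 (adjusted p = 0.0674) that passed the test when blocked on array set (0.31, adjusted p = 0.00549), as did its change between the TIL groups (0.34, adjusted p = 0.0177).

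The immunoproteasome subunits, which take the places of Psmb5, Psmb6 and Psmb7, gave 0 calls of 3 in each comparison by limma. At an unadjusted p under 0.05, 1 was lower in Tim-3- TIL and 1 higher in Tim-3+ TIL against naive cells, and between the TIL groups all 3 were higher in Tim-3+ cells. Psmb8 was at 12.22, 12.20, 12.15, 12.09 and 12.20 in naive cells, 11.95, 12.13 and 12.17 in Tim-3- TIL, and 12.38, 12.40, 12.30 and 12.36 in Tim-3+ TIL. The Tim-3+ arrays lie above all others, with a difference of 0.28 ± 0.091 from Tim-3- TIL (adjusted p = 0.0569) and of 0.19 ± 0.080 from naive cells (adjusted p = 0.0701). Psmb9 ranged from 11.78 to 12.08, 11.75 to 12.08 and 12.10 to 12.30 in the 3 groups, and Psmb10 from 10.61 to 11.21, 10.33 to 10.74 and 10.77 to 11.16. The calls change with array set as a block. In that fit all 3 were higher in Tim-3+ than Tim-3- cells (0.28, 0.31 and 0.38; adjusted p = 0.0352, 0.0385 and 0.00575 for Psmb8, Psmb9 and Psmb10). In the same fit Psmb8 and Psmb9 were also higher in Tim-3+ TIL than in naive cells (0.19 and 0.22; adjusted p = 0.0483 and 0.0420), and Psmb10 was lower in Tim-3- TIL (-0.38, adjusted p = 0.00161).

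Whether an immunoproteasome subunit shifted against the constitutive subunit it replaces was tested within each array, as the difference of their log2 intensities, for 3 pairs in 3 comparisons. In Tim-3+ TIL against naive cells this difference was lower by 0.41 for Psmb8 minus Psmb5 (exact permutation p = 0.0794, two-sided), by 0.49 for Psmb9 minus Psmb6 (exact p = 0.0159) and by 0.72 for Psmb10 minus Psmb7 (exact p = 0.0952). In Tim-3- TIL against naive cells the decreases were 0.17, 0.43 and 0.94 (exact p = 0.429, 0.0714 and 0.107). Between the TIL groups the changes were -0.24, -0.059 and 0.22 (exact p = 0.286, 0.686 and 0.571). The smallest p that these group sizes allow is 0.0159, 0.0357 and 0.0571 in the order given, and after adjustment over the 9 tests none passed, the smallest being 0.143.

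The cap base unfolds the substrate and feeds it into the core. Of its 9 members 8 rose in Tim-3+ TIL against naive cells (median 0.46), 3 of 9 in Tim-3- TIL (median 0.28), and 0 of 9 between the TIL groups (limma; 2 at an unadjusted p under 0.05; median 0.22), the last becoming 4 when blocked on array set (Psmc1, Psmc3, Psmd1 and Psmd2). Without the block, 20.1%, 16.1% and 7.77% of all genes were called higher, and the counts of 3 and 0 are too small to set apart from that. All 6 ATPases of the ring, Psmc1 to Psmc6, were higher in Tim-3+ TIL than in naive cells, by 0.34 to 0.54 and without overlap. Psmc4, the Rpt3 ATPase, was at 10.93, 10.87, 10.58, 10.62 and 10.53 in naive cells, 11.21, 11.07 and 11.15 in Tim-3- TIL, and 11.20, 11.22, 11.09 and 11.15 in Tim-3+ TIL. Both TIL groups lie above all naive arrays and overlap each other. The changes were 0.44 ± 0.11 (adjusted p = 0.00618) and 0.46 ± 0.10 (adjusted p = 0.00181) against naive cells, and 0.02 ± 0.11 between the TIL groups (adjusted p = 0.938). The other Psmc4 probe set, also above the dim level, gave 0.20, 0.38 and 0.19 in the same order.

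Psmc6, the Rpt4 ATPase, stood at 10.39, 10.27, 10.38, 10.30 and 10.40 in naive cells, 10.50, 10.87 and 10.79 in Tim-3- TIL, and 10.87, 10.78, 10.92 and 10.95 in Tim-3+ TIL. All TIL arrays lie above all naive arrays, and the TIL groups overlap. It rose by 0.37 ± 0.10 in Tim-3- TIL (adjusted p = 0.00988) and by 0.54 ± 0.092 in Tim-3+ TIL (adjusted p = 0.000281). The Tim-3- call was lost without Tim-3- array 2 or 3, at an adjusted p of up to 0.0651.

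Psmc3 and Psmc5, the Rpt5 and Rpt6 ATPases, rose in Tim-3+ TIL against naive cells. Psmc3 was at 10.53, 10.59, 10.65, 10.46 and 10.55 in naive cells, 10.48, 10.81 and 10.84 in Tim-3- TIL, and 11.02, 10.94, 11.05 and 11.04 in Tim-3+ TIL. Psmc5 was at 9.56, 9.45, 9.69, 9.71 and 9.64, at 9.44, 9.98 and 10.10, and at 10.02, 9.99, 10.12 and 10.12. In both genes Tim-3- array 1 lies among or below the naive arrays and the other Tim-3- arrays above them. The changes in Tim-3+ TIL were 0.46 ± 0.093 (adjusted p = 0.00108) and 0.45 ± 0.12 (adjusted p = 0.00826). Psmc3 differed between the TIL groups by 0.30 ± 0.11 (adjusted p = 0.0806), or 0.32 when blocked on array set (adjusted p = 0.0325). Psmc1 and Psmc2 rose there by 0.50 and 0.34 (adjusted p = 0.00711 and 0.00689). Blocked on array set, Psmc1 also rose in Tim-3- TIL against naive cells (0.26, adjusted p = 0.0210) and between the TIL groups (0.28, adjusted p = 0.0372).

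The large scaffold subunits of the base, which dock ubiquitin carriers, are encoded by Psmd1 and Psmd2. Psmd2 was at 9.89, 9.96, 10.05, 9.79 and 9.95 in naive cells, 10.24, 10.25 and 10.35 in Tim-3- TIL, and 10.67, 10.50, 10.50 and 10.67 in Tim-3+ TIL, 3 steps without overlap. It rose by 0.35 ± 0.094 in Tim-3- TIL (adjusted p = 0.00974; 0.0521 without Tim-3- array 3) and by 0.65 ± 0.086 in Tim-3+ TIL (adjusted p = 2.53e-05), and differed between the TIL groups by 0.30 ± 0.098 (adjusted p = 0.0579; 0.0371 when blocked on array set). Psmd1 rose by a like amount in Tim-3+ TIL, 0.65 ± 0.21, with a weaker call (adjusted p = 0.0224). It had the largest spread within groups of the 34 members above the dim level (SD 0.358), with its set A arrays 0.45 to 0.95 below its set B arrays, and its call was lost without naive array 2 or Tim-3+ arrays 3 or 4 (adjusted p up to 0.0727). Blocked on array set, Psmd1 also rose in Tim-3- TIL against naive cells (0.31, adjusted p = 0.0398) and between the TIL groups (0.40, adjusted p = 0.0309).

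Psmd4, the ubiquitin receptor of the base, did not pass the test in any comparison. It was at 10.81, 10.79, 10.78, 10.63 and 10.70 in naive cells, 10.50, 10.81 and 10.87 in Tim-3- TIL, and 10.76, 10.90, 10.80 and 10.74 in Tim-3+ TIL. The 3 groups overlap throughout, and the change in Tim-3+ TIL against naive cells was 0.06 ± 0.094 (adjusted p = 0.666).

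The cap lid removes the ubiquitin chain before the substrate enters the core. Of its 8 members 6 rose in Tim-3+ TIL against naive cells (median 0.47), 2 in Tim-3- TIL (median 0.20), and 4 between the TIL groups (median 0.28). Of all genes 20.1%, 16.1% and 7.77% were called higher in these comparisons. The lid, with 8 of the 36 members, held 4 of the 6 called between the TIL groups. Those 6 fell to between 1 and 3 when any 1 TIL array was left out. The further members called between the TIL groups when blocked on array set all lay outside the lid. Psmd14, the Rpn11 deubiquitinase that does the cutting, was at 11.48, 11.41, 11.32, 11.26 and 11.32 in naive cells, 11.60, 11.41 and 11.44 in Tim-3- TIL, and 11.95, 11.84, 11.76 and 11.77 in Tim-3+ TIL. The Tim-3- arrays overlap the naive ones, and the Tim-3+ arrays lie above both. It was higher in Tim-3+ TIL by 0.47 ± 0.086 against naive cells (adjusted p = 0.000434) and by 0.35 ± 0.097 against Tim-3- TIL (adjusted p = 0.0293). The second call was lost without Tim-3+ 1 or 2 or Tim-3- 2 or 3 (adjusted p up to 0.124).

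Psmd12, the Rpn5 scaffold of the lid, rose in all 3 comparisons. It was at 9.98, 10.12, 10.09, 10.002 and 9.97 in naive cells, 10.35, 10.45 and 10.52 in Tim-3- TIL, and 10.72, 10.75, 10.68 and 10.76 in Tim-3+ TIL, again 3 separate steps. The changes were 0.41 ± 0.085 (adjusted p = 0.00178), 0.70 ± 0.078 (adjusted p = 4.95e-06) and 0.29 ± 0.089 (adjusted p = 0.0446). The first 2 held without any 1 array, while the last was lost in each of the 7 fits that left out 1 array (adjusted p up to 0.127).

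Psmd13, the Rpn9 subunit, was at 8.83, 9.03, 8.80, 8.42 and 8.61 in naive cells, 9.06, 8.94 and 9.002 in Tim-3- TIL, and 9.67, 9.51, 9.34 and 9.61 in Tim-3+ TIL. The Tim-3+ arrays stand apart from both other groups, which overlap. It was higher in Tim-3+ TIL than in naive cells by 0.79 ± 0.12, a fold of 1.74 (adjusted p = 8.88e-05), and than in Tim-3- TIL by 0.53 ± 0.14, a fold of 1.44 (adjusted p = 0.0187). The second call was lost without Tim-3+ array 1 or Tim-3- arrays 2 or 3 (adjusted p up to 0.0765).

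Psmd6, the Rpn7 subunit, had the smallest spread within groups of all genes measured, with an SD of 0.022. It was at 10.30, 10.30, 10.26, 10.27 and 10.28 in naive cells, 10.50, 10.52 and 10.50 in Tim-3- TIL, and 10.73, 10.78, 10.80 and 10.76 in Tim-3+ TIL, 3 steps without overlap. The changes were 0.23 ± 0.078 (adjusted p = 0.0354), 0.49 ± 0.071 (adjusted p = 6.45e-05) and 0.26 ± 0.081 (adjusted p = 0.0484). The SE is far wider than this spread because limma shares the variance estimate over genes. The first and last calls were lost without any 1 array, at adjusted p up to 0.102 and 0.130.

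The other lid subunits showed smaller or less even changes. Psmd11 and Psmd8 rose in Tim-3+ TIL against naive cells by 0.36 and 0.47 (adjusted p = 0.00829 and 0.0118). Psmd8 rose in Tim-3- TIL too when blocked on array set (0.24, adjusted p = 0.0293). In Psmd8 the Tim-3+ arrays were at 10.95 and 10.93 in set A and at 10.50 and 10.47 in set B, and the lowest of them lies below the highest naive array, at 10.51. Psmd3 and Psmd7 did not pass in any comparison, with changes of 0.35 ± 0.14 and 0.26 ± 0.15 in Tim-3+ TIL against naive cells (adjusted p = 0.0628 and 0.203). Psmd3 passed there when blocked on array set (0.38, adjusted p = 0.00454). For Psmd7 the probe sets disagree: its most variable one gave -0.42 in that comparison (adjusted p = 0.0445).

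**Figure D4:**
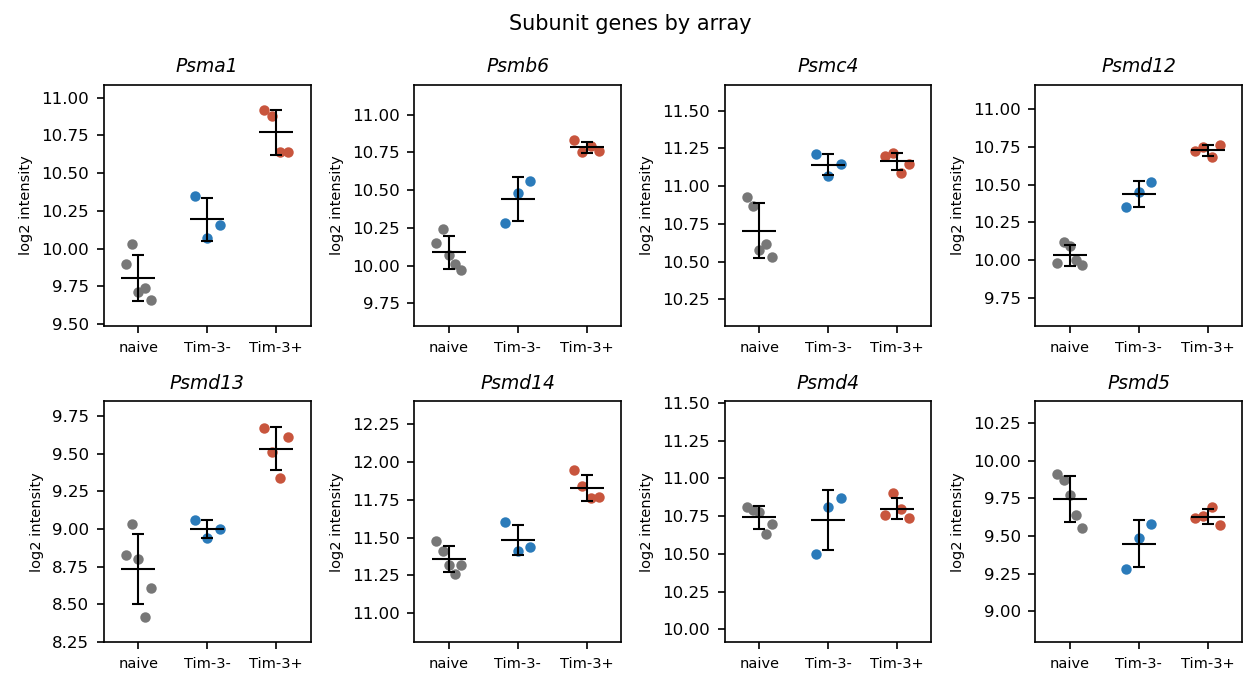
Log2 intensity (vertical axes) by group (horizontal axes; naive n = 5, Tim-3- n = 3, Tim-3+ n = 4) of 8 members; points are arrays, bars the mean ± SD. Psma1, Psmb6 and Psmd12 form 3 separate steps, and Psmc4, by the probe set used, is level between the TIL groups. Psmd13 and Psmd14 stand apart in Tim-3+ TIL, Psmd4 overlaps throughout, and Psmd5 is lower in Tim-3- TIL than in naive cells by 0.30.

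Psmd5, Psmd9 and Psmd10 encode chaperones that help to assemble the cap base and leave before the proteasome is complete. They went separate ways. Psmd9 was at 7.81, 8.25, 7.92, 7.32 and 7.48 in naive cells, 8.18, 8.42 and 8.38 in Tim-3- TIL, and 8.79, 8.92, 8.53 and 8.64 in Tim-3+ TIL. Naive cells vary widely and their highest array reaches into the Tim-3- range, while the Tim-3+ arrays lie above all others. It rose by 0.57 ± 0.18 in Tim-3- TIL (adjusted p = 0.0231) and by 0.96 ± 0.16 in Tim-3+ TIL, a fold of 1.95 (adjusted p = 0.000257). The Tim-3- call was lost without Tim-3- 2 or 3 or naive 5 (adjusted p up to 0.0830). Another Psmd9 probe set above the dim level gave 1.87 in Tim-3- and 1.49 in Tim-3+ TIL against naive cells. Between the TIL groups it gave -0.38, where the one used gave 0.39.

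Psmd5 was the only member to fall in any comparison. It was at 9.91, 9.87, 9.77, 9.64 and 9.55 in naive cells, 9.28, 9.49 and 9.58 in Tim-3- TIL, and 9.62, 9.63, 9.69 and 9.57 in Tim-3+ TIL. The highest Tim-3- array lies above the lowest naive array, so the groups overlap, and the Tim-3+ arrays lie inside the naive range. The change in Tim-3- TIL against naive cells was -0.30 ± 0.11 (adjusted p = 0.0462), lost in 5 of 8 fits without 1 array (naive 1, 2 or 3, Tim-3- 1 or 2; adjusted p up to 0.188). Psmd10, gankyrin, did not pass in any comparison, with changes of -0.19, 0.08 and 0.27. The testis-specific Psma8 and the thymus-specific Psmb11 lay at 3.41 to 4.19 and 4.32 to 4.95 over the 12 arrays, below the dim level in all groups, and did not pass the test.

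Between the TIL groups, 6 members passed: Psma1, Psmb6, Psmd6, Psmd12, Psmd13 and Psmd14. This count rests on few arrays, and fell to between 1 and 3 when any 1 of the 7 TIL arrays was left out: 1 without Tim-3+ 1 or Tim-3- 2, 2 without Tim-3+ 2 or Tim-3- 3, and 3 without Tim-3+ 3, Tim-3+ 4 or Tim-3- 1. Blocked on array set it was 17, the 11 further members being Psma3, Psma4, Psma5, Psma7, Psmb2, Psmb3, Psmb5, Psmc1, Psmc3, Psmd1 and Psmd2, each higher in Tim-3+ TIL. The members' median change was 0.35 within set A and 0.19 within set B. Of the 11 rises and 1 fall in Tim-3- TIL against naive cells, 4 calls remained without Tim-3- array 3, 6 without Tim-3- array 2 and 7 without naive array 5. Blocked on array set there were 16 calls, 15 of them rises, the further members being Psmb7, Psmc1, Psmd1 and Psmd8. Psmc4 and Psmd12 were called in every one of those 8 fits. In Tim-3+ TIL against naive cells the count lay between 26 and 29 without any 1 array, and 25 of the 28 members were called in every such fit, Psma6, Psma7 and Psmd1 being the others.

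Within a group, members differed less between arrays than most genes did: the median SD was 0.129 over the 34 members above the dim level and 0.197 over the 10909 genes above that level. Naive arrays 4 and 5 were low, with 6 and 9 of 34 members above their group's mean, against 21 to 26 in the other 3. In Tim-3- TIL the count was 12, 18 and 25, and in Tim-3+ TIL 21, 19, 13 and 15. The difference between the array sets had the same sign in all 3 groups in 18 of 34 members. Set A was higher in 10, which include Psmb1 to Psmb5 but not the other beta subunits, and lower in 8, which include Psmb7, Psmc1, Psmc2, Psmc5, Psmc6 and Psmd1. The excess of 3' over 5' signal in 5 control transcripts, a reading of RNA quality and amplification, lay between -0.034 and 0.133 in set A and between 0.230 and 0.353 in set B. Its part in the members' values was not tested.

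Of the 19 members with more than 1 probe set, 17 had another above the dim level, 26 probe sets in all. In Tim-3+ TIL against naive cells, 23 of the 26 changed in the same direction as the one used, and 20 of 21 for called members. In Tim-3- TIL against naive cells and between the TIL groups, 20 and 18 of 26 did. The exceptions for Tim-3+ TIL against naive cells include both other probe sets of Psmd7.

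Other measures moved with the groups as well. All 19 mitosis genes measured rose in each comparison, with medians of 2.91, 4.37 and 1.21 in Tim-3- TIL against naive, Tim-3+ TIL against naive and Tim-3+ against Tim-3- TIL. Their summed intensity was 1184 to 1438 in naive cells, 7739 to 12918 in Tim-3- TIL and 18784 to 27276 in Tim-3+ TIL. Of the melanoma markers 2, 4 and 5 of 7 were above the dim level in naive, Tim-3- and Tim-3+ samples, with sums of 419 to 555, 391 to 646 and 301 to 1167. The pigment genes Tyrp1 and Dct rose in Tim-3+ TIL against naive cells, by 3.66 and 2.92, and Pmel fell by 1.24 (adjusted p = 0.000114, 0.000449 and 0.000284). In Tim-3- TIL Tyrp1 and Dct rose by 3.05 and 2.24 and Pmel fell by 0.88 (adjusted p = 0.00145, 0.00758 and 0.00896 by limma). Mlana and Tyr were called higher than in naive cells in Tim-3+ TIL only. Between the TIL groups 0 of the 7 melanoma markers were called. B cell markers summed to 2940 to 3859, 1175 to 1287 and 385 to 477, and NK cell markers to 412 to 538, 1720 to 1879 and 857 to 1148. Of the 4 NK cell markers, Eomes alone lay above the dim level in each group, at means of 8.61, 10.79 and 9.82. Tyrobp went the other way, lower in Tim-3- TIL than in naive cells by 0.73 (adjusted p = 0.00459 by limma). The 5 markers of CD4 and regulatory T cells, among which Ctla4 and Il2ra are also expressed by activated CD8 T cells, summed to 425 to 570, 7988 to 9254 and 7268 to 8213, with Cd4 itself higher than in naive cells by 0.83 in Tim-3- and 0.99 in Tim-3+ TIL (adjusted p = 0.000148 and 8.53e-06). Ikzf2 was higher by 3.64 and 3.54. Foxp3 was higher by 0.85 in Tim-3- TIL (adjusted p = 7.75e-05 by limma) but changed by -0.16 in Tim-3+ TIL (adjusted p = 0.291). Between the TIL groups Foxp3 was lower in Tim-3+ cells by 1.00 (adjusted p = 0.000107). Monocyte and macrophage markers, 2 of 9 above the dim level in each group, summed to 281 to 360, 446 to 522 and 346 to 467. Their median change against naive cells was -0.23 in Tim-3- and 0.014 in Tim-3+ TIL. Cd68 was higher in Tim-3- TIL than in naive cells by 1.45 (adjusted p = 7.28e-05 by limma). In Tim-3+ TIL, Cd14 was higher by 1.09 (adjusted p = 0.000149) and Cd163 lower by 0.93 (adjusted p = 0.00745), both below the dim level in each group. Dendritic cell markers summed to 310 to 394, 310 to 419 and 301 to 347, with 2, 3 and 2 of 6 above the dim level. Fibroblast and endothelial markers summed to 960 to 1215, 490 to 511 and 281 to 360, with 2 of 7 above it in each group. The 2 were Pecam1, at means of 9.77, 8.17 and 6.71, and Col1a1, at 6.54, 6.51 and 6.48. The part of all these measures in the proteasome values was not tested. In bulk samples, fewer cells of a type and less RNA per cell cannot be told apart.

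Other genes of the pathway were read from 7 lists, of which 53 of 64 genes were measured. In Tim-3+ TIL against naive cells 17 rose and 7 fell, in Tim-3- TIL 10 rose and 8 fell, and between the TIL groups 5 rose and 2 fell, with median changes of 0.14, 0.04 and 0.07. Of all genes 20.1%, 16.1% and 7.77% rose and 21.4%, 18.3% and 5.77% fell in these comparisons. Activators, inhibitors and partners of the cap rose in 6 of 12 cases in Tim-3+ TIL (median 0.33), 4 of 12 in Tim-3- TIL (median 0.18) and 2 of 12 between the TIL groups (median 0.17), and none fell (limma; none at an unadjusted p under 0.05), beside 20.1%, 16.1% and 7.77% of all genes called higher. Txnl1, a thioredoxin-like protein bound to the cap, was at 10.23, 10.31, 10.33, 10.21 and 10.19 in naive cells, 10.96, 11.09 and 11.11 in Tim-3- TIL, and 11.49, 11.26, 11.35 and 11.35 in Tim-3+ TIL. The groups do not overlap, and the change from naive to Tim-3+ cells was 1.11 ± 0.082 (adjusted p = 6.89e-08).

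Usp14, a deubiquitinase that docks on the cap and trims ubiquitin from its substrates, was at 7.77, 7.88, 7.97, 8.25 and 8.18 in naive cells, 8.60, 8.53 and 8.38 in Tim-3- TIL, and 9.25, 8.72, 9.32 and 9.02 in Tim-3+ TIL. It formed 3 steps, with rises of 0.50 ± 0.15 (adjusted p = 0.0180), 1.07 ± 0.14 (adjusted p = 1.75e-05) and 0.57 ± 0.15 (adjusted p = 0.0239). The first was lost without Tim-3- 1 or 2 (adjusted p up to 0.0638) and the last without Tim-3+ 1 or 3 or Tim-3- 2 or 3 (up to 0.0968). Uchl5, the other deubiquitinase that the cap recruits, rose by 0.79 ± 0.14 in Tim-3+ TIL against naive cells (adjusted p = 0.000302). Zfand5, a zinc finger protein that stimulates the proteasome, rose in both TIL groups, by 0.72 and 0.57 (adjusted p = 0.000349 and 0.000793). The activator genes Psme1, Psme3 and Psme4 did not pass in any comparison.

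Factors that assemble the core did not move together. Psmg1, which pairs with Psmg2 to build the alpha ring, was at 8.72, 8.93, 8.46, 8.64 and 8.33 in naive cells, 8.32, 7.77 and 8.12 in Tim-3- TIL, and 7.95, 7.85, 7.68 and 7.81 in Tim-3+ TIL. Both TIL groups lie below all naive arrays, the opposite direction from the alpha subunits. It fell by 0.55 on the log2 scale in Tim-3- TIL (adjusted p = 0.0106; 0.0744 without Tim-3- array 2) and by 0.79 in Tim-3+ TIL (adjusted p = 0.000282). Psmg2 fell by 0.53 in Tim-3- TIL only by this threshold (adjusted p = 0.0161; 0.0951 without Tim-3- array 2), with a change of -0.08 in Tim-3+ TIL. Pomp, which guides the maturation of the beta ring, rose by 0.50 ± 0.11 in Tim-3+ TIL against naive cells (adjusted p = 0.00187). The chaperonin CCT, another ring-shaped complex for protein quality, had 1 of 8 subunits called, Tcp1 in Tim-3+ TIL at 0.23 (adjusted p = 0.0346), which was lost in 7 of 9 fits without 1 array (adjusted p up to 0.0885; naive 3 and 5 were the exceptions). In that comparison 20.1% of all genes were called higher, and 1 of 8 is too small a count to set apart from that.

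Proteasome genes are known to be induced together by the transcription factor Nrf1 (gene Nfe2l1), which binds antioxidant response elements when proteasome activity falls short, and the related Nrf2 (gene Nfe2l2), held down by Keap1, uses the same elements. Nfe2l1 was at 8.57, 8.47, 8.58, 8.43 and 8.54 in naive cells, 8.20, 8.62 and 8.67 in Tim-3- TIL, and 8.35, 8.43, 8.84 and 8.50 in Tim-3+ TIL. The groups overlap, with adjusted p of 0.933, 0.941 and 0.927 in the 3 comparisons. Nrf1 is known to be controlled largely after translation. Nfe2l2 was at 9.25 to 9.49 in naive cells, at 7.23, 7.70 and 7.71 in Tim-3- TIL, and at 6.98, 7.21, 6.91 and 6.69 in Tim-3+ TIL. It fell in both TIL groups, by 1.80 and 2.40 on the log2 scale (adjusted p = 1.83e-07 and 1.74e-09).

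Between the TIL groups Nfe2l2 fell by a further 0.60 (adjusted p = 0.0125), a call not made without Tim-3- 2 or 3 (adjusted p up to 0.0689). Keap1 was at 10.64 to 10.91 in naive cells, 9.86 to 10.05 in Tim-3- TIL and 10.27 to 10.64 in Tim-3+ TIL. It fell by 0.78 in Tim-3- TIL (adjusted p = 6.95e-05) and by 0.32 in Tim-3+ TIL (adjusted p = 0.0218), the second lost without Tim-3+ 1 or 2 or naive 3 (adjusted p up to 0.0772), and between the TIL groups it was higher in Tim-3+ cells by 0.47 (adjusted p = 0.0149; 0.0557 without Tim-3- array 1). Maff, a small Maf protein that pairs with both factors, rose in both TIL groups, by 2.08 ± 0.21 and 1.66 ± 0.20 (adjusted p = 3.68e-06 and 9.03e-06). Sqstm1, the p62 cargo receptor of selective autophagy and a known Nrf2 target, rose by 1.02 and 0.97 (adjusted p = 0.000144 and 7.72e-05). In all, 5 of the 9 list genes measured rose and 3 fell in each TIL group against naive cells, where 34.4% (Tim-3-) and 41.5% (Tim-3+) of all genes were called.

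**Figure D5:**
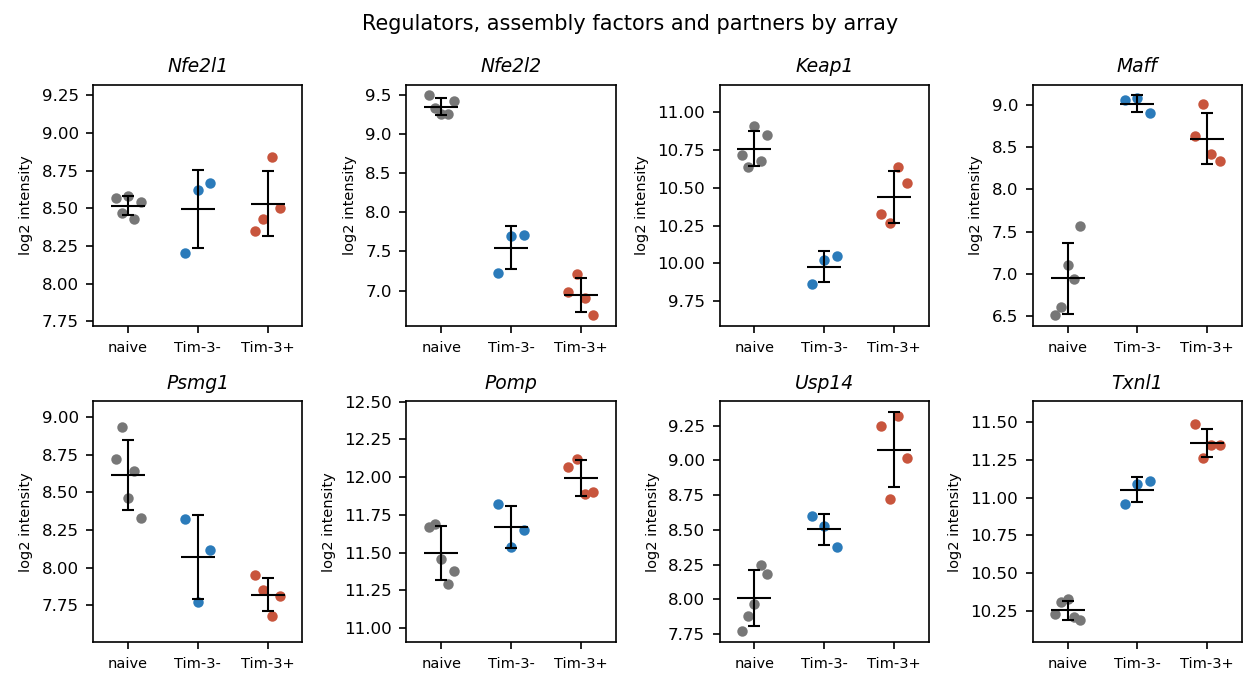
Log2 intensity (vertical axes) by group (horizontal axes; naive n = 5, Tim-3- n = 3, Tim-3+ n = 4) of regulators, assembly factors and partners of the proteasome; points are arrays, bars the mean ± SD. Nfe2l1 is level at 8.50 to 8.53, Nfe2l2 falls from 9.35 to 7.55 and 6.95, Psmg1 falls by 0.79 from naive to Tim-3+ cells, and Usp14 and Txnl1 rise there by 1.07 and 1.11.

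Factors that extract and carry ubiquitinated proteins to the proteasome, and enzymes that make the tag, changed in both directions. Vcp, the p97 unfoldase, rose by 0.31 in Tim-3+ TIL against naive cells (adjusted p = 0.0277), and the p97 partner Faf1 rose by 0.45 (adjusted p = 0.00251) and, against Tim-3- TIL, by 0.55 (adjusted p = 0.00634). Ubqln1, a shuttle factor, fell by 0.37 and 0.46 in Tim-3- and Tim-3+ TIL against naive cells (adjusted p = 0.0130 and 0.00137), the first lost without Tim-3- array 2 (adjusted p = 0.0745). Its most variable probe set gave 0.056 in Tim-3+ TIL (adjusted p = 0.806), the other direction. The conjugating enzyme gene Ube2n rose by 0.54 and 0.72 (adjusted p = 0.00164 and 5.25e-05). Ube2d1, another conjugating enzyme, was lower in Tim-3+ TIL than in naive cells and in Tim-3- TIL, with changes of -0.62 in both (adjusted p = 0.00229 and 0.0179), the second lost without Tim-3+ 1 or 2 or Tim-3- 2 or 3 (adjusted p up to 0.0939).

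The promoters of the members were searched for shared letters in the 250 bases before and the 50 bases after each annotated start (RefSeq, GRCm38.p6). Windows were given for 29 of the 36 members, 31 in all. Each motif was searched on both strands. The core of the antioxidant response element, TGACNNNGC, was found in 5 of 31 windows (16.1%), beside 12.4% of all 32851 windows and 14.4% of the windows of genes above the dim level. These windows belong to Psmb5, Psmb6, Psmc6, Psmd9 and Psmd12, and are shown because this is the element that Nrf1 binds; the motif is in capitals, each sequence runs 5′ to 3′ on the gene's strand, and only bases before the start are printed.
Psmb5, chr14:54618010-54618066, minus strand, 47 bases before the start: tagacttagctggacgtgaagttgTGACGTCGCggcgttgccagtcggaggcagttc
Psmb6, chr11:70525324-70525356, plus strand, 9 bases before the start: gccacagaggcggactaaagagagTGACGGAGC
Psmd9, chr5:123228135-123228189, plus strand, 31 bases before the start: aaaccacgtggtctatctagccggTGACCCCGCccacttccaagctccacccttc
Psmd12, chr11:107479278-107479313, plus strand, motif on the other strand, 247 bases before the start: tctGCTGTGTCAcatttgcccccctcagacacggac
Psmc6, chr14:45329574-45329629, plus strand, motif on the other strand, 227 bases before the start: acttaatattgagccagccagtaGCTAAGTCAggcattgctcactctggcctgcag

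The ETS core CCGGAAG, the motif of a large family of activators that includes GABPA, was in 11 of 31 windows (35.5%), of 10 members, beside 8.86% of all windows and 18.1% of the windows of genes above the dim level. These members are Psma6, Psmc1, Psmc2, Psmc6, Psmd2, Psmd4, Psmd6, Psmd11, Psmd12 and Psmd13. All but Psmd4 rose in Tim-3+ TIL against naive cells, where 28 of all 36 members rose, and a link between motif and rise was not tested. The CCAAT box was in 12 of 31 windows (38.7%), beside 37.4% of all windows. CCGGAAG and CCAAT shared 4 members, and CCGGAAG and TGACNNNGC shared Psmc6 and Psmd12. A few CCGGAAG sites that lie close to the start, in genes described above, are shown in the same way.
Psmd2, chr16:20651602-20651651, plus strand, motif on the other strand, 26 bases before the start: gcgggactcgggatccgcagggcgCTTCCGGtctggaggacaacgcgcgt
Psmd6, chr14:14120960-14121014, minus strand, 45 bases before the start: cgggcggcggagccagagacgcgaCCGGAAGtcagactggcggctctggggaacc
Psmd12, chr11:107479487-107479527, plus strand, motif on the other strand, 17 bases before the start: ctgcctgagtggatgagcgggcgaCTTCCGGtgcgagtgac
Psmc1, chr12:100110150-100110201, plus strand, motif on the other strand, 28 bases before the start: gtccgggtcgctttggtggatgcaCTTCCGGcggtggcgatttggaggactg

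Members with and without these letters both rose: Psma1, Psma4 and Psmd14, which have windows without TGACNNNGC or CCGGAAG, changed by 0.96, 0.74 and 0.47 in Tim-3+ TIL against naive cells, and Psmb6 and Psmd12, with TGACNNNGC, by 0.70 and 0.70. A match is only a run of letters, and neither binding nor activity at these sites was measured.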

How the data were processed

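The authors deposited 1 table of 45101 probe sets on a linear intensity scale, with array medians between 58.8 and 63.0. RMA and the affy package are named per the submitters' processing notes. No version is named, and how the values came to be linear, or whether the arrays were normalized as 1 set, is not given in the sources used here. RMA's shared normalization would hide a change common to all genes. Here the log2 of each deposited intensity was taken, with no further normalization or filter. Each gene is read by the probe set of highest mean intensity among the 34945 naming exactly 1 gene (932 name several, 9160 none, and 64 are controls). This gave 18193 genes. Group means were fitted over 12 arrays with limma 3.58.1 (R 4.3.3, two-sided, empirical Bayes). Precision is limited by the number of arrays. The pairs of catalytic subunits were compared by exact permutation in scipy 1.17.1 (Python 3.11.15). The method was tested on simulated data.

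Members and lists were chosen with earlier results of these data known. The genes with values for every array are the catalytic subunits, Psmd14 and Psmd4, in each family those with the smallest adjusted p in Tim-3- TIL against naive or between the TIL groups, and any that fell. Psma2, Psmd6 and Psmd9 were added after their values were seen. Of the lists, the genes with the smallest adjusted p are named, and Nfe2l1, Vcp, Psme1, Psme3 and Psme4 besides.

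Groups share replicate numbers. Deviations from the group mean of same-numbered naive and Tim-3+ arrays correlated at 0.128 to 0.319 over genes in all 4 pairs. Each of these pairs also lies within 1 array set. For Tim-3- arrays the range was -0.151 to 0.226 with naive and -0.131 to 0.413 with Tim-3+ arrays. Both lowest values are those of Tim-3- array 2, which lies in another array set than its namesakes. A further fit took the replicate number as a block over all 12 arrays, Tim-3- arrays included. The labels name no pairing, and the naive mice had no tumour, so the number is not known to pair animals. The array sets come from the first principal component of the deviations from the group means, which held 35.9% of their variance. A block made in this way lowers the spread within groups by its making, so calls that it adds are not independent support. Alternatives were another probe set per gene, quantile or median normalization, leaving out dim genes, trend and robust moderation, array weights, fewer groups, replicate or set blocks, each set alone, a 2-fold minimum and leaving out each array.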

Additional observations from a re-analysis of the deposited data

Results flagged for a closer look

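Among the naive and Tim-3+ arrays of the members, 72 groups of 4 or 5 arrays were tested and 0 had an array far from the rest, where chance gives about 1 in 20. Groups of 3, the Tim-3- arrays, were not tested. The other named genes gave a pair of such arrays, both in PD-1+ Tim-3+ TIL. Zfand5 was lowest in replicate 1, at 11.67, with the other arrays between 11.99 and 12.04, a gap of 0.875 of the group's range. Ube2n was lowest in replicate 2, at 10.91, with the others between 11.13 and 11.16, a gap of 0.873 of the range. Both gaps exceed Dixon's limit for 4 arrays.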

How the results depend on the processing

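Of the members called, 25 of 28 in Tim-3+ TIL against naive cells were called in every fit without 1 array, 2 of 12 in Tim-3- TIL against naive cells and 1 of 6 between the TIL groups. Psma8 and Psmb11 lie at a signal that may be background. For the members past the threshold in Tim-3- TIL against naive cells, the count of 12 became 7 with quantile normalization again, 7 with arrays centred on the median, 7 with the replicate block, 1 within set A and 0 at 2-fold, and between 4 and 11 without 1 array. Their median change of 0.19 became 0.27 with the most variable probe set and 0.11 with centred arrays (0.18 with the replicate block), between 0.16 and 0.22 without 1 array. For Tim-3+ TIL against naive cells the count of 28 became 0 at 2-fold and stayed at 28 with the replicate block, which ended the calls of Psma6 and Psma7, and lay between 26 and 29 without 1 array. Their median of 0.46 became 0.56 with the most variable probe set (0.43 with the replicate block), between 0.43 and 0.48 without 1 array.

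Between the TIL groups the count of 6 became 2 with the most variable probe set, 2 with quantile normalization, 10 with the filter on dim genes, 12 with trend and 12 with trend and robust moderation, 2 with only the groups compared, 17 with the array set block, 2 within set A, 1 within set B, 11 without moderation and 0 at 2-fold, and between 1 and 3 without 1 array. It was 9 with the replicate block, and 3 of 6 arrays matched their own number best, a hint from the data only. The median of 0.27 became 0.35 within set A and 0.19 within set B, between 0.20 and 0.32 without 1 array.

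The pathway counts of 18, 24 and 7 (Tim-3- against naive, Tim-3+ against naive, between TIL groups) became 4, 5 and 0 at 2-fold. The first became 11 and the last 0 within set A, and the last 14 with the set block. Without 1 array they lay between 11 and 18, 21 and 24, and 2 and 6. Psmb9 minus Psmb6 became -0.069 in Tim-3- TIL against naive cells within set A, -0.29 (exact p = 0.333) and -0.60 (exact p = 0.20) in Tim-3+ TIL within sets A and B, the smallest p these arrays allow, and -0.22 between the TIL groups within set A. Psmb10 minus Psmb7 between the TIL groups reversed to -0.068 within set A. Among single genes, Psmd7 reversed to -0.42 and Ubqln1 to 0.056 in Tim-3+ TIL against naive cells with the most variable probe set. Of 864 values for members without 1 array, 773 kept their direction and side of the threshold, 78 lost it, 13 gained it and 0 reversed. The causes of these shifts were not tested.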
